A study of Arabidopsis with 9 samples.

Results

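The SAUR (small auxin-up RNA) genes of Arabidopsis thaliana were examined here as a set of 56 locus identifiers, found in the table by identifier. Of these, 55 were found in the gene column of the authors' deposited RNA-seq table, among 31747 loci in all, each under 1 gene name. The remaining identifier, AT5G53590 (SAUR30), heads no entry. A locus named AT5G53588 lies where RefSeq places it and was not taken as a member. All 56 identifiers have an entry in a RefSeq gene table, from which the SAUR numbers were taken. That table gives the number 68 to both AT1G29490 and AT1G29510, so these are called by their identifiers.

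RNA came from 14-day-old seedlings grown in long days without treatment. By their labels the 9 samples are 3 biological replicates apiece of WT, syd-5 and swi3d-1. The labels do not state the accession background or how many plants were pooled. SYD is a SWI/SNF chromatin remodelling ATPase and SWI3D a core subunit of such complexes. The table holds 3 pooled values per locus, in fragments normalised to locus length and library size (FPKM), for WT, for syd-5 and for a condition whose name equals no sample label. That one is called the unlabelled condition, since neither the table nor the labels say that it is swi3d-1. SYD stood at 23.1 FPKM in WT seedlings, 4.11 in syd-5 and 24.3 under the unlabelled condition, and SWI3D at 16.4, 16.0 and 3.81. These levels were not used to assign a genotype. Replicate values and read depths are not in the table, so the error of a change is known only through the authors' own test against WT.

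SAUR genes form one of the largest families of early auxin response genes. Most are short, and many lie in tandem arrays of closely related copies. Auxin releases ARF transcription factors from Aux/IAA repressors, and the ARFs then activate SAUR genes together with light- and brassinosteroid-regulated factors of the PIF and BZR families. SAUR proteins such as SAUR19 bind and inhibit clade D type 2C protein phosphatases, which otherwise dephosphorylate plasma membrane proton pumps. The pumps then acidify the wall and the cell expands.

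Among the SAUR members, lower levels were the more frequent change in both conditions set against WT. According to the authors' deposited table, 18 of 45 tested members fell in syd-5 and 1 rose at the authors' q < 0.05, against 27.9% of all tested loci called, 14.1% lower and 13.8% higher. In the unlabelled condition 11 of 45 fell and 1 rose, against 28.1% called, 14.4% lower and 13.7% higher. Those 45 members reached 1 FPKM in at least 1 condition. The median log2 fold change on the scale of log2(FPKM + 1) was -0.80 for syd-5 and -0.45 for the unlabelled condition, beside 0.01 and -0.01 over all tested loci. Passing the filter favoured falls in 7 members that reached 1 FPKM in WT alone, of which SAUR23 is the only one called, and rises in 2 that did not reach it in WT. Over all 55 listed members the medians were -0.53 and -0.43. Both comparisons share the WT value of each locus.

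**Figure D1:**
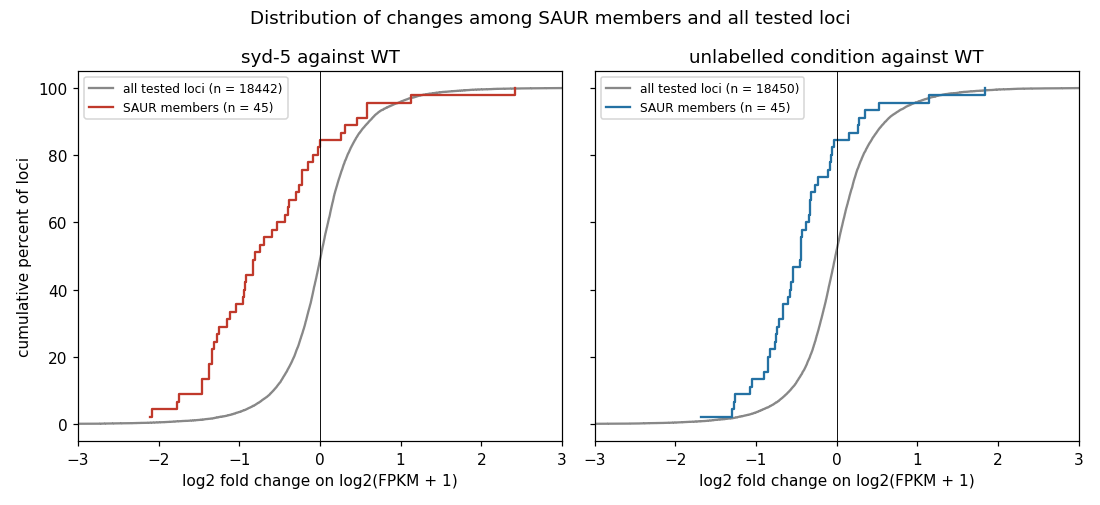
Cumulative percent of loci (vertical axis) against log2 fold change on log2(FPKM + 1) (horizontal axis), for the 45 SAUR members that passed the filter and for all tested loci, in syd-5 and under the unlabelled condition. The SAUR curves lie to the left of the curves of all loci over most of the range, with medians of -0.80 and -0.45.

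The summed level of the 55 listed members rested on few of them. In the authors' deposited table, the WT levels of the 55 members ranged from 0 to 109 FPKM, with a median of 3.42. SAUR6 (AT2G21210) alone gave 20.1% of their summed FPKM, and the first 5 in order, SAUR6, SAUR14, SAUR31, SAUR55 and SAUR16, gave 50.9%. In WT 7 members were at 20 FPKM or more, 16 between 5 and 20, 20 between 1 and 5, 3 between 0.5 and 1 and 9 below 0.5 FPKM. SAUR2 was listed at 0 in all 3 conditions. The 8 members that were not tested in either comparison all stayed below 1 FPKM. The summed level of the 55 members was 539 FPKM in WT seedlings, 377 in syd-5 (69.8% of WT) and 406 in the unlabelled condition (75.3% of WT). These sums leave out the 24 SAUR genes outside the set, whose sum was higher in both conditions than in WT. It went from 195 FPKM to 241 for syd-5 and 253 for the unlabelled condition. SAUR78 alone went from 45.8 FPKM to 128 and 134, a larger rise than that of the sum. The other genes outside the set thus did not rise as a sum. Among them, SAUR47 and SAUR74 are each listed at a locus merged with further genes. Levels in whole seedlings cannot tell fewer expressing cells from less RNA per cell.

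The error of a change was larger for members of low level. It is given below as the standard error (SE) implied by the authors' test statistic for the log2 ratio of FPKM to WT, without a pseudocount. For the 23 tested members with at least 5 FPKM in WT the median SE for syd-5 was 0.423, and 13 of them fell there and 1 rose. For the 22 below 5 FPKM the median SE was 1.17, and 5 fell and 0 rose. Over all tested loci, whatever their level, 14.1% were called lower and 13.8% higher in syd-5. A share for loci of like level is not given here. With such errors, a member below 5 FPKM that missed the threshold can still have changed by a large factor.

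The SAUR19 cluster (AT5G18010 to AT5G18080, chromosome 5, 5962897 to 5984112, TAIR10) holds 6 members, SAUR19 to SAUR24, whose products promote cell expansion. By the authors' deposited table, their summed level was 19.2 FPKM in WT seedlings, 2.82 in syd-5 (14.7% of WT) and 9.24 in the unlabelled condition (48.1%). In syd-5 4 of 6 fell and in the unlabelled condition 2 of 6 fell, and none rose. Over all tested loci, 14.1% and 14.4% were called lower in the same comparisons. All 6 were below their WT level in both other conditions.

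SAUR20 fell from 5.32 FPKM in WT seedlings to 1.28 in syd-5, a log2 ratio of -2.05 (SE 0.893, q = 0.00882), and to 2.38 in the unlabelled condition, a log2 ratio of -1.16 (SE 0.732, q = 0.0455). SAUR23 fell from 2.99 FPKM to 0.440 in syd-5 (q = 0.0397) and 0.934 in the unlabelled condition (q = 0.0422). SAUR21 fell from 4.24 FPKM to 0.561 in syd-5 (log2 ratio -2.92, SE 1.14, q = 0.0352) and stood at 2.18 in the unlabelled condition (q = 0.120). For these 3 genes syd-5 held the lowest of the 3 levels. SAUR24 was listed at 0 in syd-5 against 3.31 FPKM in WT (q = 0.00389) and stood at 2.41 in the unlabelled condition (q = 0.822), so no ratio is given for syd-5. SAUR19 itself was near the bottom of the measurable range, at 1.04 FPKM in WT seedlings, 0.143 in syd-5 (q = 0.321) and 0.369 in the unlabelled condition (q = 0.302). SAUR22 stood at 2.32, 0.393 (q = 0.0989) and 0.964 FPKM (q = 0.155). Copies of this array are alike in sequence, and how the authors' tools divided reads that match several copies is not given in the sources used here, so single members are less certain than their sum and are not independent of each other.

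In the SAUR63 cluster on chromosome 1 (AT1G29430 to AT1G29510, 10302650 to 10323189) every tested member of the set fell in syd-5. SAUR61, a SAUR gene directly beside SAUR62 but outside the set, gave no call there, at 9.43 FPKM against 9.26 for WT (q = 0.957). SAUR63 promotes elongation of hypocotyls and floral organs. According to the authors' deposited table, all 6 tested members fell in syd-5, with log2 ratios from -2.07 to -1.28. Under the unlabelled condition 1 of 6 fell, and the log2 ratios of the 6 ran from -0.94 to -0.49. Of all tested loci, 14.1% were called lower for syd-5 and 14.4% for the other comparison. The count of 1 of 6 is near that background. The summed level was 57.8 FPKM in WT seedlings, 18.6 in syd-5 (32.2% of WT) and 36.8 in the unlabelled condition (63.6%).

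AT1G29510 had the highest WT level of the array and fell from 13.03 FPKM to 3.10 in syd-5 (log2 ratio -2.07, SE 0.527, q = 0.000567) and 6.80 in the unlabelled condition (-0.94, SE 0.431, q = 0.00194). SAUR63 (AT1G29440) fell from 12.3 FPKM to 4.34 in syd-5 (-1.50, SE 0.489, q = 0.000567) and stood at 8.15 in the unlabelled condition (-0.60, SE 0.421, q = 0.0671). SAUR62 fell from 10.9 FPKM to 4.49 in syd-5 (-1.28, SE 0.457) and stood at 7.74 in the unlabelled condition (q = 0.132). These 3 genes kept 23.8%, 35.3% and 41.2% of their WT level in syd-5. SAUR64 fell from 8.54 to 2.69 FPKM in syd-5 and stood at 5.99 under the unlabelled condition (q = 0.229). SAUR65 fell from 6.10 to 1.81 FPKM in syd-5 and stood at 3.49 under the unlabelled condition (q = 0.0578). SAUR66 fell from 6.51 to 2.0995 FPKM in syd-5 and stood at 4.54 under the unlabelled condition (q = 0.209). In each of the 6 genes WT was the highest, the unlabelled condition the next and syd-5 the lowest. AT1G29490 stayed below 0.5 FPKM throughout and was not tested.

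In the authors' deposited table, AT1G29470, which lies between SAUR65 and AT1G29490, stood at 96.2 FPKM in WT seedlings, 108 in syd-5 (q = 0.410) and 105 in the unlabelled condition (q = 0.586). AT1G29465, in the same gap, stood at 4.20, 4.64 and 5.61 FPKM. Inside the SAUR19 cluster AT5G18065 rose from 2.47 FPKM to 4.83 in syd-5 (q = 0.00424) and 4.21 in the unlabelled condition (q = 0.0411), and AT5G18040 stood at 6.80, 8.18 and 7.69 FPKM. Over the 6 arrays together, 9 entries other than the members were tested, with AT5G18070 in more than 1 entry at the same interval. Each comparison had 1 fall and 1 rise among them, not far from the 27.9% and 28.1% of all tested loci called. The fall was MRL1 (AT4G34830), from 59.0 FPKM to 43.3 and 41.9, whose interval is shared with the member SAUR5. AT4G38820 and AT2G21195, also among the 9, share intervals with members too. SAUR61 (AT1G29420, chromosome 1, 10300198 to 10301992), just outside the set and next to SAUR62, stood at 9.26 FPKM in WT seedlings, 9.43 in syd-5 (log2 ratio 0.03, SE 0.355, q = 0.957) and 9.25 in the unlabelled condition (SE 0.340, q = 0.997).

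**Figure D2:**
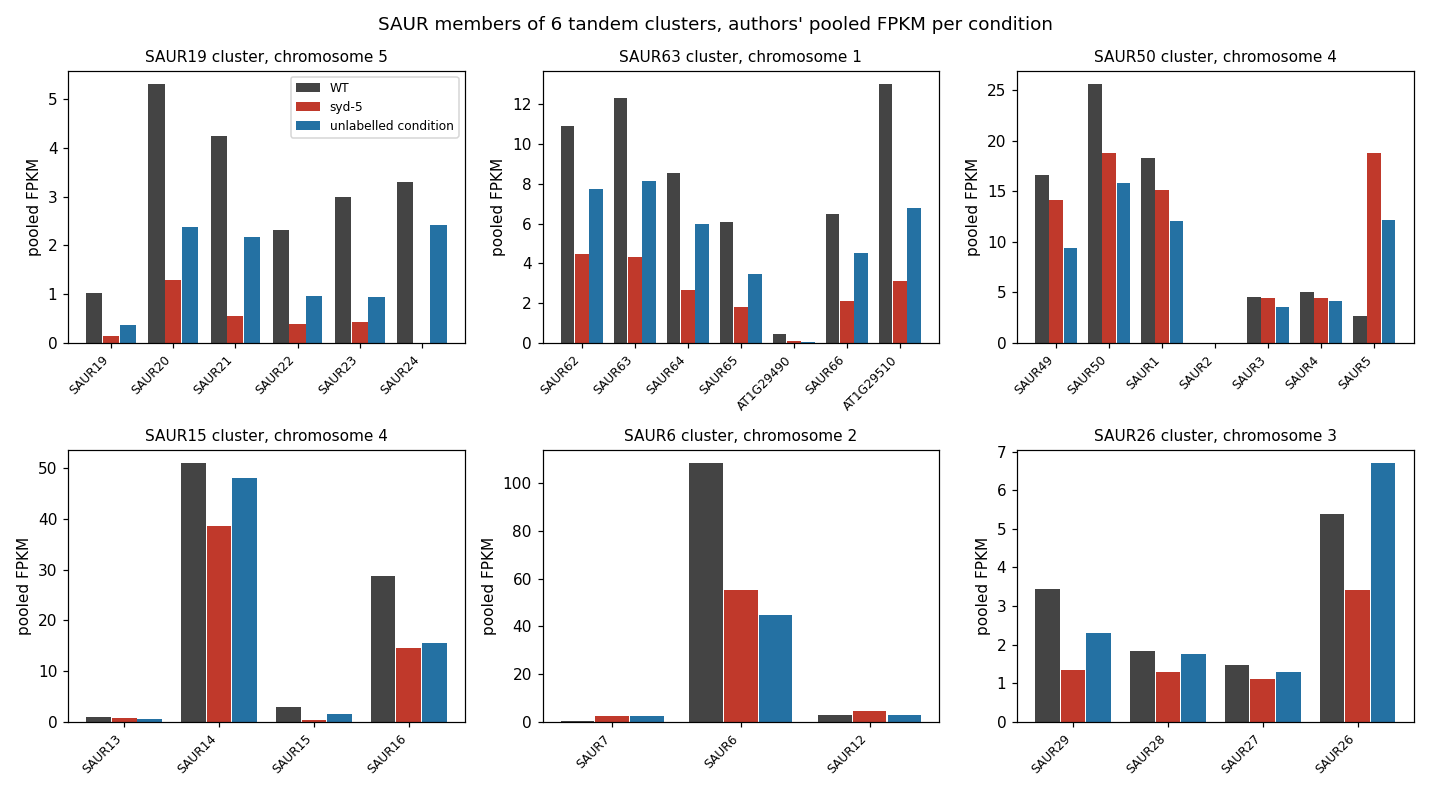
Pooled FPKM (vertical axis, linear, from 0, scaled per panel) of each SAUR member in 6 tandem clusters in genome order, with bars for WT, syd-5 and the unlabelled condition and no error bars, since the table has no replicate values. The bars of syd-5 are the lowest of the 3 for every tested member of the SAUR19 and SAUR63 clusters, while those of SAUR49, SAUR50 and SAUR1 are lowest in the unlabelled condition.

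The SAUR50 cluster on chromosome 4 (AT4G34750 to AT4G34810, 16577404 to 16606060) had more calls in the unlabelled condition than in syd-5. Its member SAUR50 takes part, with SAUR16, in the light-induced opening of cotyledons, and SAUR49 promotes leaf senescence. By the authors' deposited table, 3 of 6 tested members fell in the unlabelled condition and 1 of 6 in syd-5, with none higher, beside 14.4% and 14.1% of all tested loci called lower. The syd-5 count is near that background. SAUR50 fell from 25.7 FPKM to 18.8 in syd-5 (log2 ratio -0.45, SE 0.307, q = 0.0493) and 15.8 in the unlabelled condition (-0.70, SE 0.313, q = 0.00106). SAUR49 stood at 16.7 FPKM in WT seedlings and 14.1 in syd-5 (q = 0.390) and fell to 9.44 in the unlabelled condition (-0.82, SE 0.326, q = 0.000567). SAUR1 stood at 18.3 FPKM in WT seedlings and 15.1 in syd-5 (q = 0.368) and fell to 12.0 in the unlabelled condition (-0.60, SE 0.357, q = 0.0248). For these 3 genes the unlabelled condition held the lowest of the 3 levels.

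The other members of that array gave no call. According to the authors' deposited table, SAUR3 stood at 4.51, 4.49 and 3.59 FPKM and SAUR4 at 5.03, 4.44 and 4.16 FPKM in WT seedlings, syd-5 and the unlabelled condition. SAUR5 stood at 2.70, 18.8 and 12.2 FPKM, but its interval of 7440 bases is shared with MRL1, and the SE of its log2 ratio was 5.07 for syd-5 and 5.16 for the unlabelled condition, so its level is barely known.

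The SAUR15 cluster (AT4G38825 to AT4G38860, chromosome 4, 18121526 to 18133863) includes SAUR15, known as SAUR-AC1, an early auxin-induced SAUR gene of Arabidopsis. In the authors' deposited table, SAUR15 stood at 2.85 FPKM in WT seedlings, 0.477 in syd-5 (log2 ratio -2.58, SE 1.31, q = 0.0611) and 1.63 in the unlabelled condition (q = 0.291). SAUR16 fell from 28.7 FPKM to 14.5 in syd-5 (-0.99, SE 0.303, q = 0.000567) and 15.5 in the unlabelled condition (-0.89, SE 0.297, q = 0.000567). SAUR14, the second most abundant member in WT, stood at 51.0, 38.5 (q = 0.0676) and 47.9 FPKM (q = 0.769). SAUR16 thus fell in both conditions, while no change of SAUR14 or SAUR15 passed the threshold. SAUR13 stayed below 1 FPKM. The interval of SAUR16 is shared with AT4G38870, that of SAUR14 with CRK26 and that of SAUR13 with AT4G38820.

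The SAUR6 cluster (chromosome 2, 9083065 to 9089813) held the most abundant member, SAUR6, whose interval is shared with SAUR7 and AT2G21195. By the authors' deposited table, SAUR6 fell from 109 FPKM in WT seedlings to 55.4 in syd-5 (log2 ratio -0.97, SE 0.262, q = 0.000567) and 44.8 in the unlabelled condition (-1.28, SE 0.273, q = 0.000567). SAUR12 stood at 2.97, 4.43 (q = 0.360) and 2.82 FPKM (q = 0.939). SAUR7 stood at 0.557, 2.40 and 2.46 FPKM with an SE of 3.10 or more.

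The SAUR26 cluster (AT3G03820 to AT3G03850, chromosome 3, 976933 to 983751), with SAUR26 to SAUR29, gave no call in either comparison of the authors' deposited table. SAUR26, whose group is known for growth responses to temperature, stood at 5.39 FPKM in WT seedlings, 3.42 in syd-5 (q = 0.1501) and 6.72 in the unlabelled condition (q = 0.489). SAUR27, SAUR28 and SAUR29 stood between 1.47 and 3.45 FPKM in WT seedlings, between 1.12 and 1.34 in syd-5 and between 1.30 and 2.31 under the unlabelled condition. The median SE of the array was 0.906 for syd-5 and 0.857 for the unlabelled condition, above the 0.651 and 0.612 of all tested members.

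Among the 24 listed members outside the arrays, 17 were tested, of which 5 fell and 1 rose in syd-5 and 3 fell and 1 rose under the unlabelled condition, in the authors' deposited table. The share that fell was 29.4% and 17.6%, beside 14.1% and 14.4% of all tested loci, so the second lay near the background. SAUR51 (AT1G75580) had the largest change among them that passed the threshold, from 11.8 FPKM to 2.01 in syd-5 (log2 ratio -2.55, SE 0.553, q = 0.000567) and 2.99 in the unlabelled condition (-1.98, SE 0.487, q = 0.000567). Its neighbour SAUR52 (AT1G75590) fell from 3.42 FPKM to 1.33 (-1.36, SE 0.623, q = 0.00629) and 1.09 (-1.65, SE 0.665, q = 0.00235). SAUR36, a gene of leaf senescence also called SAG201, fell from 12.8 FPKM to 7.52 (-0.77, SE 0.317, q = 0.00194) and 7.26 (-0.82, SE 0.322, q = 0.00106). These 3 genes fell in both conditions.

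SAUR32, which acts in the apical hook, fell from 27.6 FPKM to 15.4 in syd-5 (log2 ratio -0.84, SE 0.306, q = 0.000567) and stood at 22.0 in the unlabelled condition (-0.33, SE 0.290, q = 0.161), in the authors' deposited table. SAUR9 fell from 2.71 FPKM to 1.21 in syd-5 (q = 0.0273) and stood at 1.93 in the unlabelled condition (q = 0.350). The members that rose were SAUR37 in syd-5, from 12.97 to 19.9 FPKM (0.62, SE 0.374, q = 0.0278; 15.8 in the unlabelled condition, q = 0.410), and SAUR55 in the unlabelled condition, from 36.0 to 52.2 FPKM (0.54, SE 0.248, q = 0.00235; 43.5 in syd-5, q = 0.185). SAUR31, at 50.3 FPKM in WT seedlings, stood at 49.3 in syd-5 and 55.8 under the unlabelled condition, with 95% intervals of the log2 ratio from -0.49 to 0.43 and from -0.31 to 0.61. SAUR41, a gene of hypocotyl elongation, stood at 5.87, 5.49 and 5.54 FPKM, and SAUR56 at 5.50, 1.93 (q = 0.0881) and 2.68 FPKM (q = 0.171). The other 7 tested members outside the arrays, SAUR8, SAUR33, SAUR35, SAUR42, SAUR45, SAUR53 and SAUR54, stood between 0.666 and 3.48 FPKM in WT and gave no call, with the lowest q, 0.0838, for SAUR54 in syd-5. The interval of SAUR8 is shared with AT2G16575. SAUR10, SAUR25, SAUR34, SAUR38, SAUR39, SAUR40 and SAUR46 stayed below 1 FPKM throughout.

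**Figure D3:**
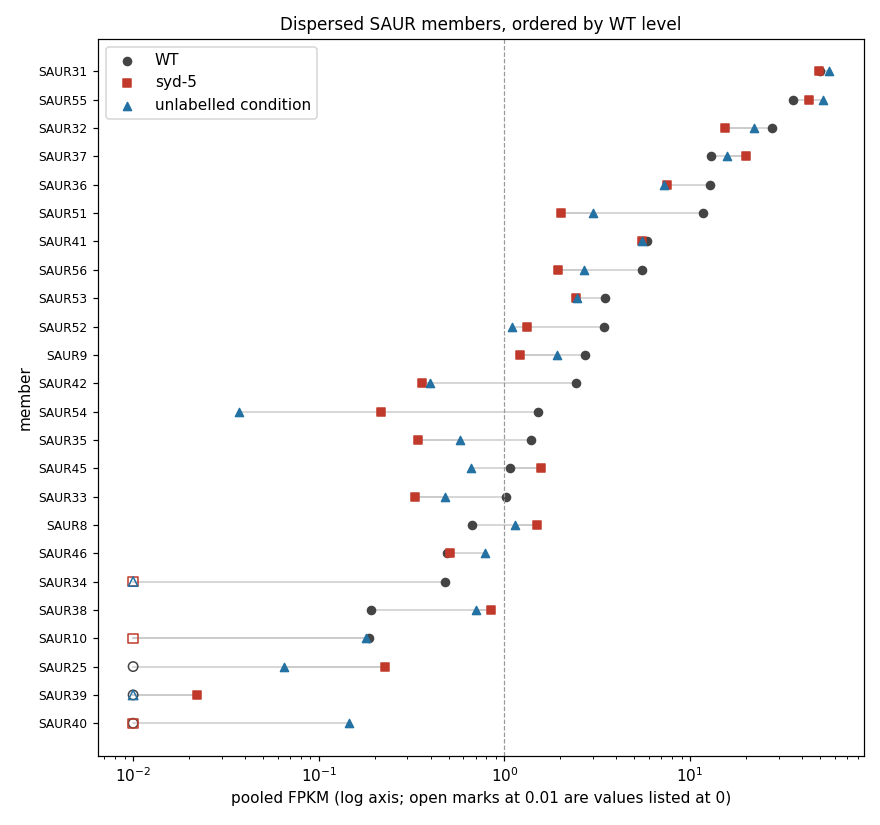
Pooled FPKM (horizontal log axis) of the 24 listed SAUR members outside the arrays, ordered by WT level, with circles for WT, squares for syd-5 and triangles for the unlabelled condition. Open marks at 0.01 stand for values listed at 0, and the dashed line marks the filter of 1 FPKM. SAUR51 shows the widest gap between WT and both other conditions among members above 5 FPKM in WT seedlings, and SAUR31 and SAUR41 show almost none.

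**Figure D4:**
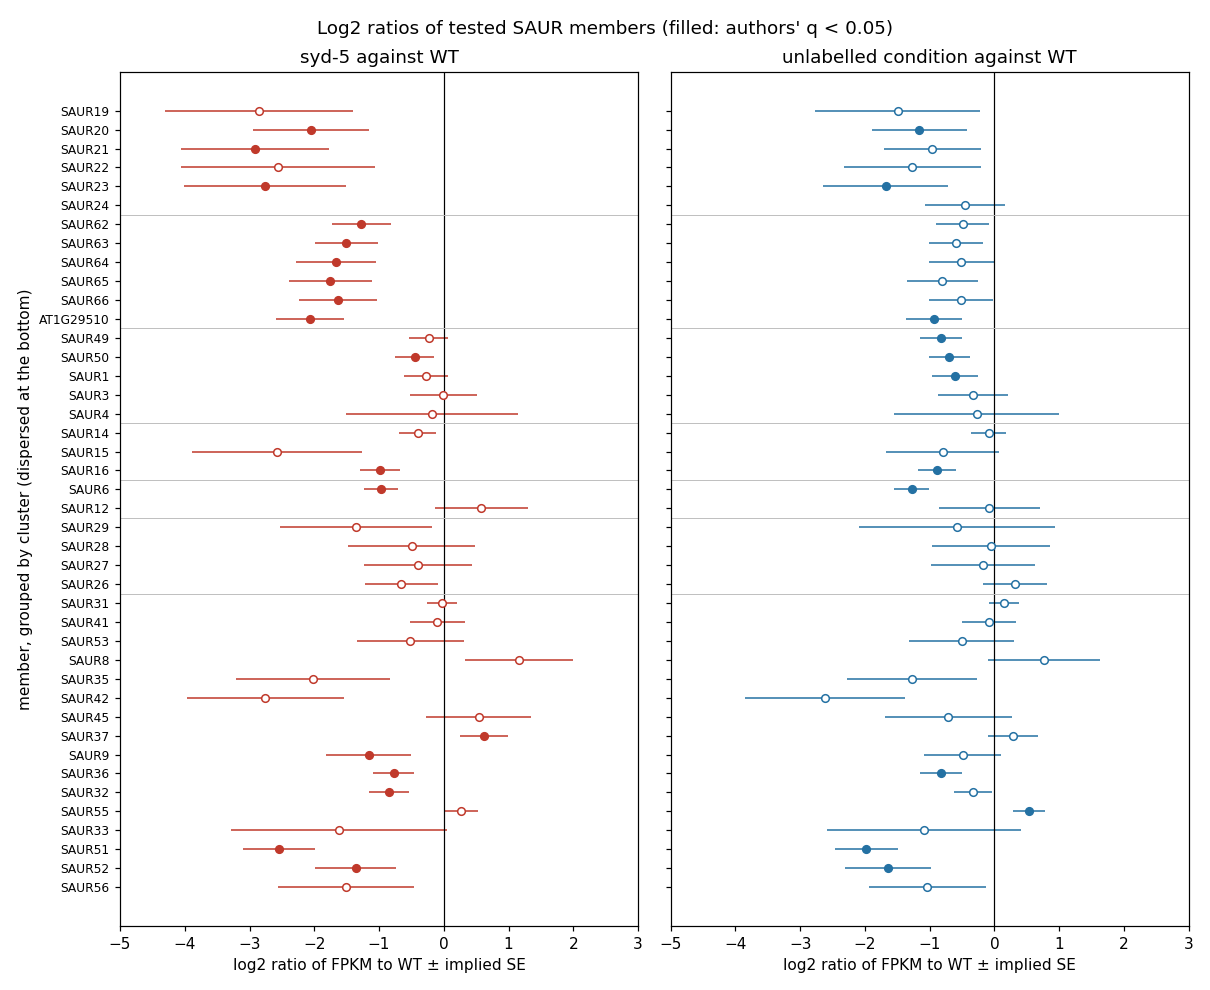
Log2 ratio of FPKM to WT (horizontal axis) with the SE implied by the authors' test statistic, for 42 tested members in syd-5 and under the unlabelled condition, grouped by cluster; filled circles passed q < 0.05. SAUR5, SAUR7 and SAUR54, with an SE of 2 or more, are left out, and SAUR24 has no circle in syd-5, where it is listed at 0. The 6 circles of the SAUR63 cluster are filled in syd-5 and lie between -2.07 and -1.28.

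A direct test of the unlabelled condition against syd-5 found no member past the threshold. It divided the difference of the log2 ratios to WT by their joint error on the scale of the authors' p, a normal test adjusted with Benjamini-Hochberg over 18382 loci. Of 44 members tested, 0 had q < 0.05, against 0.0925% of all loci, 0.0598% higher and 0.0326% lower in the unlabelled condition. At an unadjusted p under 0.05 there were 10 members, 9 higher in the unlabelled condition and 1 lower, or 22.7% against 2.25% of all loci. Among the 10 were SAUR62, SAUR63, SAUR64, SAUR66 and AT1G29510, all of the SAUR63 cluster, which may not be independent of each other. With errors on the scale of the test statistic, 0 members passed q < 0.05 and 0 an unadjusted p under 0.05. The 6 tested members of the SAUR63 cluster were 0.79 to 1.16 higher in the unlabelled condition on the log2 scale. For AT1G29510 the difference was 1.13 with a 95% interval from 0.36 to 1.90 (q = 0.693), and for SAUR63 it was 0.91 with an interval from 0.18 to 1.64 (q = 0.9999). For SAUR49 the difference was -0.58, with an interval from -1.09 to -0.08. For SAUR6 it was -0.31 with an interval from -0.73 to 0.12, and for SAUR16 0.10 with an interval from -0.38 to 0.58. A call in 1 comparison and not in the other, as in the SAUR63 cluster, is therefore not shown to be a difference between syd-5 and the unlabelled condition.

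RefSeq labels 24 further genes SAUR, and the share of them called lay near that of all loci. According to the authors' deposited table, 16 were tested, of which 3 rose and 2 fell in syd-5 and 2 rose and 2 fell under the unlabelled condition, beside 27.9% and 28.1% of all tested loci called. Their medians were -0.14 and -0.10 on log2(FPKM + 1). Passing the filter favoured rises in 2 of them that did not reach 1 FPKM in WT. Of those 2, SAUR79 was called higher in both comparisons, from 0.906 FPKM to 2.58 in syd-5 (q = 0.0407) and 4.04 in the unlabelled condition (q = 0.00389). SAUR76, SAUR77 and SAUR78 are known to interact with ethylene receptors, and SAUR76 and SAUR78 went opposite ways. SAUR78 rose from 45.8 FPKM to 128 in syd-5 (log2 ratio 1.49, SE 0.241, q = 0.000567) and 134 in the unlabelled condition (1.55, SE 0.241, q = 0.000567). SAUR76 fell from 13.3 FPKM to 2.56 (-2.38, SE 0.546, q = 0.000567) and 5.02 (-1.40, SE 0.448, q = 0.000567). SAUR77 stood at 2.06, 1.70 and 1.66 FPKM. SAUR59 fell from 36.0 FPKM to 16.1 and 16.8. Another called gene, AT5G01830, carries the same symbol as AT5G18030 (SAUR21) in that reference and rose from 4.95 to 7.74 FPKM in syd-5 (q = 0.00106; 6.54 in the unlabelled condition, q = 0.0614). AT5G01830 was counted here by that symbol alone, as 1 of the 3 rises in syd-5, and whether it belongs to the family was not checked.

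Upstream of the family, auxin synthesis genes changed in both directions. In the authors' deposited table, 3 of 8 tested genes fell and 1 rose in syd-5, and 3 fell and 3 rose in the unlabelled condition, beside 27.9% and 28.1% of all tested loci called. TAA1, the aminotransferase that makes the precursor of auxin, fell from 25.1 FPKM to 9.71 in syd-5 (log2 ratio -1.37, q = 0.000567) and 7.35 in the unlabelled condition (-1.77, q = 0.000567), and its homologue TAR2 fell from 8.92 to 4.74 and 3.91 FPKM. YUC2, a flavin monooxygenase of the next step, fell from 2.95 FPKM to 0.352 and 0.523, while YUC6, of the same family, rose from 2.78 to 5.69 and 5.97 FPKM. Passing the filter favoured a fall in YUC2, which reached 1 FPKM in WT alone. It favoured rises in 2 of the 8 genes that did not reach 1 FPKM in WT. Of those 2, YUC5 was called higher under the unlabelled condition (q = 0.0163). TAA1, TAR2 and YUC6 reached 1 FPKM in all 3 conditions. Of 6 auxin receptor genes 1 rose and 1 fell in both conditions, AFB1 (listed as GRH1) from 20.8 FPKM to 31.7 and 32.1 and AFB5 from 51.6 to 38.5 and 37.2. Of 5 activating ARF genes, ARF8 fell from 20.8 FPKM to 14.3 (q = 0.00106) and 15.4 (q = 0.00695). The merged locus of ARF19 and AT1G19210 rose from 6.77 FPKM to 9.59 and 9.22, and ARF6 rose in the unlabelled condition from 29.6 to 37.98 FPKM (q = 0.0227). With so few genes tested, the called share of receptors and ARFs was not set apart from that of all loci.

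Of 6 tested PIF, BZR and HBI1 genes, 3 fell and 1 rose in syd-5 and 2 fell and 1 rose under the unlabelled condition, beside 14.1% lower and 13.8% higher over all tested loci in syd-5 and 14.4% and 13.7% in the other comparison. By the authors' deposited table, PIF3 fell from 29.8 FPKM to 11.5 and 12.0, and PIF7 from 8.19 to 3.29 and 2.97 FPKM, each with q = 0.000567. PIF5 (listed as PIL6) rose from 7.45 FPKM to 12.8 and 17.3. BES1, a transcription factor of brassinosteroid signalling, fell from 159.5 FPKM to 102 in syd-5 (q = 0.00235) and stood at 133 in the unlabelled condition (q = 0.291).

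Downstream, 1 of 9 clade D phosphatase genes fell and 1 rose in each comparison, near the 27.9% and 28.1% of all tested loci called. According to the authors' deposited table, AT5G02760, which encodes the senescence-suppressed phosphatase SSPP, fell from 43.5 FPKM to 8.33 in syd-5 (log2 ratio -2.38, q = 0.01001) and 7.63 in the unlabelled condition (-2.51, q = 0.000567). AT3G12620 rose from 24.7 FPKM to 31.4 (q = 0.0411) and 32.8 (q = 0.0120). Among 9 tested proton pump genes 1 rose in syd-5 and 2 under the unlabelled condition, and none fell, beside 13.8% and 13.7% of all tested loci called higher. AHA3 (listed as HA3) rose from 59.5 FPKM to 83.7 and 94.1. AHA11 stood at 32.1 FPKM in WT seedlings and 41.9 in syd-5 (q = 0.121) and rose to 49.0 in the unlabelled condition (q = 0.00235).

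**Figure D5:**
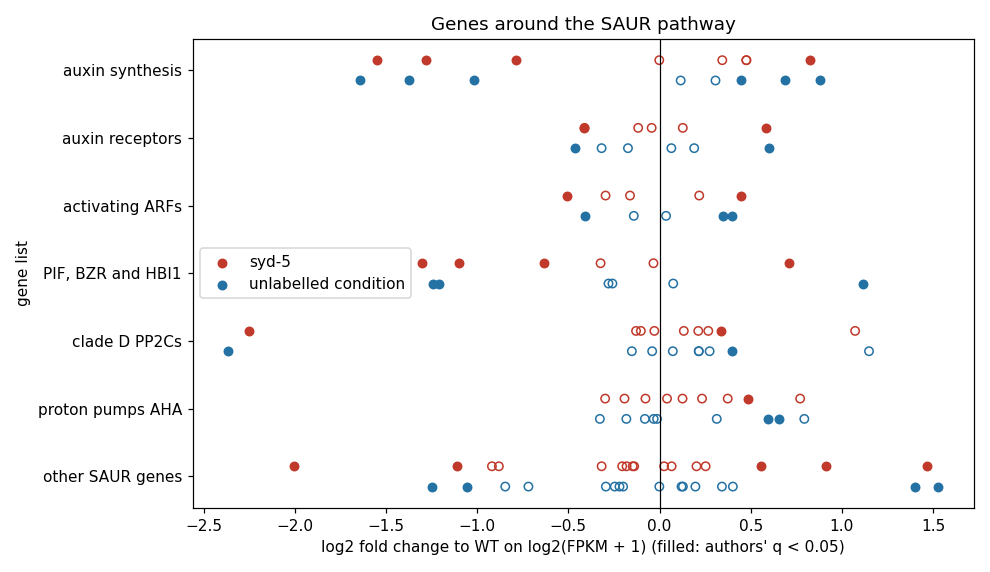
Log2 fold change to WT on log2(FPKM + 1) (horizontal axis) of the tested genes of 6 pathway lists and of SAUR genes outside the set, with circles for syd-5 and the unlabelled condition, filled where q < 0.05. Filled circles lie on both sides of 0 in each list except the proton pumps, where they lie to the right.

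Markers of organs are given beside these results, against 13.8% of all tested loci called higher and 14.1% lower in syd-5 and 13.7% and 14.4% in the other comparison. Of 14 root markers, 6 rose and 0 fell in syd-5 and 5 rose and 1 fell under the unlabelled condition in the authors' deposited table. Their summed level was 260 FPKM in WT seedlings, 288 in syd-5 and 282 under the unlabelled condition, and none was listed at 0 in all conditions. Of 8 green shoot markers, 0 rose and 1 fell in syd-5 and 2 rose and 1 fell under the unlabelled condition. Their summed level was 29796 FPKM in WT seedlings, 21059 in syd-5 and 21341 under the unlabelled condition. RBCS1A gave most of that sum, at 16594, 12006 and 11514.5 FPKM, without a call (q = 0.423 and 0.376). RBCS2B fell in both conditions, from 3597 FPKM to 1854 and 1968. LHCB3 and LHCA1 rose under the unlabelled condition, from 34.0 to 52.3 and from 222 to 292 FPKM. The part of the root and shoot markers in the SAUR levels was not tested.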

How the data were processed

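Reads were processed with TopHat2 2.1.1, Cufflinks 2.1.1 and Cuffdiff 2.1.1 on TAIR10, per the submitters' processing notes. Not given in the sources used here were the settings, the strandedness and the handling of multiply matching reads. Sense and antisense or overlapping transcripts may thus share reads. The deposited levels are FPKM, pooled to 1 value for each locus in each condition, per the file headers. The authors also deposited a test statistic, a score per locus and comparison, with its p-value and q-value. The smallest q is 0.000567 and is shared by many loci. Depth is unknown.

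A limma model on values per library had been planned, with the authors' q as the fallback. The table holds no such values, so the authors' q < 0.05 gave the calls. Loci with at least 1 FPKM in 1 or more conditions were kept. Log2 fold changes used log2(FPKM + 1), which understates changes of low genes. Log2 ratios had no pseudocount, and their SE was their size divided by the deposited statistic. Turned into normal deviates, the deposited p-values exceeded that statistic by a median factor of 1.74, so the p-values imply smaller errors. The test of the unlabelled condition against syd-5 used that scale and counts the WT error in both ratios. It was also run on simulated ratios drawn without a shared WT value, unlike those here. That run therefore cannot show how the test behaves on these data. Intervals of the difference are on the scale of p, and those of ratios to WT on that of the statistic. Starts were raised by 1 to count from 1. A gene at several loci was taken at the locus with the highest mean FPKM.

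The members and lists were chosen with earlier results of these data known. The marker lists were added with the table at hand. Named were all members of the arrays, other members with a call or at least 5 FPKM in WT, and at most 4 called genes per pathway list. SAUR61, SAUR77, the loci inside the arrays and SAUR members outside that rule were named after their values were seen. So were SAUR47, SAUR74, SAUR79, YUC5 and the single green shoot markers. Alternatives were a pseudocount of 0.1, no filter, 5 FPKM, q < 0.01, loci with 1 name, quantile normalization and adjustment within each comparison. Added later were unshared intervals, no pseudocount and the scale of the statistic. Python 3.11.15, pandas 2.3.3 and scipy 1.17.1 were used. Promoter motifs were not analysed here.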

Additional observations from a re-analysis of the deposited data

How the results depend on the processing

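Over the alternatives run, 13 to 19 members were called lower in syd-5 and 8 to 12 in the unlabelled condition. The 13 were of 24 members left by the filter of 5 FPKM, beside 18 of 45 in the main setting. A smaller pseudocount and quantile normalization leave the authors' q as it is, and every listed member has 1 name. These alternatives thus could not change which members passed q < 0.05. Shares over all loci under the alternatives are not given here. The medians ranged from -0.98 to -0.53 in syd-5 and from -0.60 to -0.43 in the unlabelled condition. With q < 0.01 the count of members called higher in syd-5 went from 1 to 0, since SAUR37 had q = 0.0278. That stricter threshold also ended the calls of SAUR50, SAUR9, SAUR21 and SAUR23 in syd-5 and of SAUR1, SAUR20 and SAUR23 in the unlabelled condition. Adjustment within each comparison added SAUR15 in syd-5 and SAUR65 in the unlabelled condition. None of the tested members of the arrays, nor of the members outside them with a call or at least 5 FPKM in WT, changed direction under any alternative that gave a value. The other members named were not recomputed singly. Quantile normalization moved the median of all loci by -0.0084 in syd-5. The count of members differing between the unlabelled condition and syd-5 was 0 under each alternative that could be applied to it. A smaller pseudocount and adjustment within each comparison do not enter that test. No paired analysis was possible because the table holds 1 pooled value per condition, and for the same reason no replicate could be left out. Low FPKM limits the SAUR19 and SAUR26 clusters most.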
